A study of Mus musculus with 4 samples.

Results

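Aminoacyl-tRNA synthetases, amino acid synthesis enzymes and genes of the ATF4 stress pathway were examined in epithelial cells of the mouse colon. The set held 37 genes, chosen by symbol from 50600 genes counted, and all 37 passed the filter on low counts. It comprised 20 genes for cytosolic tRNA synthetases, 7 for serine and one-carbon enzymes, 3 for asparagine and proline synthesis and 7 for ATF4 and its stress partners. The series compared primary colonic epithelial cells of C57BL/6 mice labelled Mettl14 WT with the same cells labelled Mettl14 KO, by RNA sequencing of poly(A)-selected RNA, with 2 libraries a genotype. The METTL14 protein is part of the enzyme that writes the m6A mark on mRNA. No Cre driver, allele, treatment or age is named in the labels, and a code shared by all titles is not explained there. Whether a library holds 1 animal or several is also not stated, and a p-value here reflects no more than the spread among these libraries. Reads of Xist and Y-linked genes put 1 male and 1 female library in each genotype.

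Mettl14 (ENSMUSG00000028114, chromosome 3, 123368297 to 123386108) was at 11.7 and 8.67 CPM (counts relative to the library total after TMM scaling) in the WT libraries and at 3.99 and 3.94 CPM in the KO libraries. Both KO libraries lay below both WT libraries. The difference missed the threshold at an adjusted p of 0.0504 (edgeR), with a log2 fold change of -1.36 ± 0.22 (SE). All coordinates of genes are from GENCODE M21 on GRCm38, and all adjusted p-values in the text are from edgeR's quasi-likelihood test over 14861 genes, with a threshold of 0.05. Levels are on this CPM scale, and WT and KO values are given in the order of replicates 1 and 2.

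A tRNA synthetase joins an amino acid to its tRNA, and cells have separate sets for the cytosol and, largely, for mitochondria. ATF4 is a transcription factor whose mRNA is translated more when the initiation factor eIF2 is phosphorylated, as under amino acid shortage or endoplasmic reticulum stress. With C/EBP partners it binds a composite element in DNA and drives genes for amino acid synthesis, amino acid uptake, tRNA charging and stress.

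That composite element, searched as TGATGNAA on both strands (TTNCATCA when read on the other strand), was present in the promoters of 9 members. The promoters of Asns and Chac1 are shown because Asns was a called member and Chac1 had the largest log2 fold change in the set. They run from 250 bases before the RefSeq start to 30 bases after it, on GRCm38.p6 and 5′ to 3′ along the gene, at chr6:7693180-7693459 (minus strand) for Asns and chr2:119350992-119351271 (plus strand) for Chac1. Capitals mark the match.
Asns: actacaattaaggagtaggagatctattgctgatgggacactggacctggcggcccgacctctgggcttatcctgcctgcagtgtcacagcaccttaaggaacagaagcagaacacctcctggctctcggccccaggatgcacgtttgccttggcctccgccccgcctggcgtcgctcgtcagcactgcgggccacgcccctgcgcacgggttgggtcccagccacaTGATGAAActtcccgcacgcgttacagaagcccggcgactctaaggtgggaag
Chac1: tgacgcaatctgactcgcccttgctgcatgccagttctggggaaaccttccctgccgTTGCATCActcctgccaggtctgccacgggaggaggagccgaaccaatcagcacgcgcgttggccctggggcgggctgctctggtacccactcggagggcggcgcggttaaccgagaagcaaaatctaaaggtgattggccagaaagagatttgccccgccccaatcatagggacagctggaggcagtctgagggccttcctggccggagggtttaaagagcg

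A further 6 members with a match are shown as 30 bases around it, so that the element can be compared between a synthetase, a proline enzyme and a stress gene. Coordinates on GRCm38.p6 were chr6:55037960-55037989 for Gars, chr13:49682126-49682155 for Iars, chr15:11399655-11399684 for Tars, chr4:129189895-129189924 for Yars, chr11:120643833-120643862 for Pycr1 and chr2:152344028-152344057 for Trib3. Tars, Pycr1 and Trib3 lie on the minus strand, and each piece reads along its gene with the match in capitals.
Gars: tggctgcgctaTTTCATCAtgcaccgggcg
Iars: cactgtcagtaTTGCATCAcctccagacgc
Tars: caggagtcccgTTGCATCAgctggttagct
Yars: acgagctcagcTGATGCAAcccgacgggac
Pycr1: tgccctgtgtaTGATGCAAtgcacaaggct
Trib3: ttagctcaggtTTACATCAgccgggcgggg

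In the knockout libraries 3 of the 37 members were called higher, and they came from 3 different roles: Asns (asparagine synthetase, 1.93-fold), Phgdh (phosphoglycerate dehydrogenase, the entry to serine synthesis, 2.43-fold) and Vars (cytosolic valyl-tRNA synthetase, 1.85-fold). These are 8.11% of the members, beside 1.72% of all tested genes (255) called higher. The set was chosen with earlier results of these data known, so such shares describe it and do not test it. No member was called lower by edgeR, beside 1.90% of all genes (282). At an unadjusted p under 0.05 the members counted 10 higher (27.0%, against 14.8% of all genes) and 2 lower (5.41%, against 15.7%). DESeq2 called 8 members higher and 2 lower, where it called 6.94% and 7.11% of all genes with an adjusted p. Limma-voom called 4 and 0, where it called 2.02% and 2.13% of all genes. Both KO libraries lay above both WT libraries in 19 members (51.4%, against 31.1% of all genes) and below them in 6 (16.2%, against 32.2%), while 12 overlapped. The median log2 fold change of the members was 0.17, and that of all tested genes -0.01.

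The margins of these calls were narrow. Adjusted p-values of all called genes ran only from 0.0434 to 0.0499, and 10 members had an adjusted p under 0.1. Without KO replicate 1, or without KO replicate 2, no gene was called by edgeR. Such a fit has 1 KO library, takes the spread from the WT pair and assumes that the lone library varies likewise. The median log2 fold change of the members was 0.11 without KO replicate 1 and 0.31 without KO replicate 2. That of all genes was -0.03 and -0.01 in these fits. Scaling by library size alone called 604 genes (4.06%) higher and 186 (1.25%) lower, and 5 members higher and 0 lower. That scaling moved the median of all genes to 0.15 on the log2 scale.

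**Figure D1:**
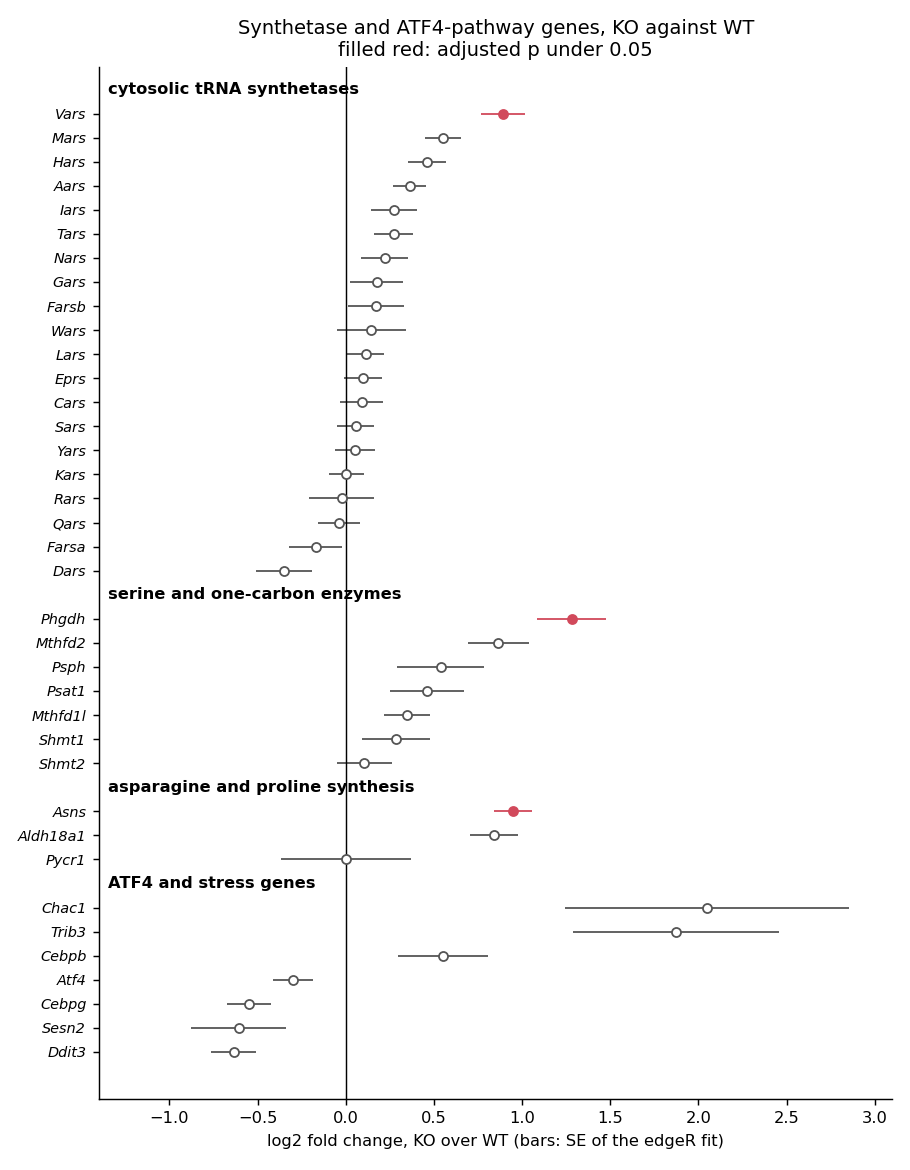
Log2 fold change (KO against WT) of the 37 members, ordered within the 4 roles, with SE from the edgeR fit. Asns, Phgdh and Vars were called, and the stress genes run from -0.64 (Ddit3) to 2.05 (Chac1).

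Among the cytosolic tRNA synthetases, Vars (ENSMUSG00000007029, chromosome 17, 35000987 to 35016322) was the 1 gene of 20 called by edgeR and by limma-voom. That is 5% of the family, against 1.72% and 2.02% of all genes called higher. DESeq2 also called Mars, where it called 6.94% of all genes higher. The level of Vars was 31.6 and 30.7 CPM in the WT libraries and 62.9 and 52.5 CPM in the KO libraries. The groups lay far apart, although the KO libraries also differed from each other. The means were 31.1 ± 0.591 and 57.7 ± 7.34 CPM (SD, n = 2), and the log2 fold change was 0.89 ± 0.12 (SE), with an adjusted p of 0.0449 (edgeR).

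Mars, the methionyl-tRNA synthetase (chromosome 10, 127296221 to 127311786), stood at 21.9 and 21.3 CPM in WT and at 31.7 and 31.6 CPM in KO. The replicates of each genotype nearly coincided, and the groups were separate. The log2 fold change was 0.55 ± 0.10 (SE), with an adjusted p of 0.0547 (edgeR), and it was called in 5 of 14 alternatives, DESeq2 among them (adjusted p 0.0322). Its adjusted p over the alternatives ran from 0.0288 to 0.381. Hars, the histidyl-tRNA synthetase, had 19.2 and 19.7 CPM in WT and 27.4 and 26.1 CPM in KO (log2 0.46 ± 0.11, SE, adjusted p 0.0744). Aars, the alanyl-tRNA synthetase, had 60.1 and 60.9 CPM in WT and 77.8 and 77.7 CPM in KO (log2 0.36 ± 0.09, SE, adjusted p 0.0862). Both were higher in each KO library than in either WT library without passing the test.

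The remaining 16 synthetases lay between -0.35 and 0.27 on the log2 scale, and their adjusted p-values ran from 0.187 (Tars) to 0.993 (Kars). Dars, the aspartyl-tRNA synthetase, had the lowest value. It was at 34.4 and 26.5 CPM in WT and 24.3 and 23.5 CPM in KO, and only the small gap between WT replicate 2 and KO replicate 1 kept the groups apart. Its log2 fold change was -0.35 ± 0.16 (SE), with an adjusted p of 0.211 (edgeR). Gars, the glycyl-tRNA synthetase and the most abundant of the family per kilobase, was at 83.3 and 65.7 CPM in WT and 87.5 and 80.6 CPM in KO. These ranges overlapped (log2 0.17 ± 0.15, SE, adjusted p 0.475).

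Over the whole family 16 of 20 log2 fold changes were positive (80%, against 49.0% of all genes), with a median of 0.13. The KO libraries lay above the WT libraries for 8 synthetases (40%, against 31.1% of all genes) and below for 2 (10%, against 32.2%), Dars and Farsa, and overlapped for 10. Summed over the 20 genes, the level was 872 and 807 CPM in WT and 985 and 907 CPM in KO. The subunits of phenylalanyl-tRNA synthetase had opposite signs, at -0.17 for Farsa and 0.17 for Farsb, and neither passed the test (adjusted p 0.48 and 0.508).

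**Figure D2:**
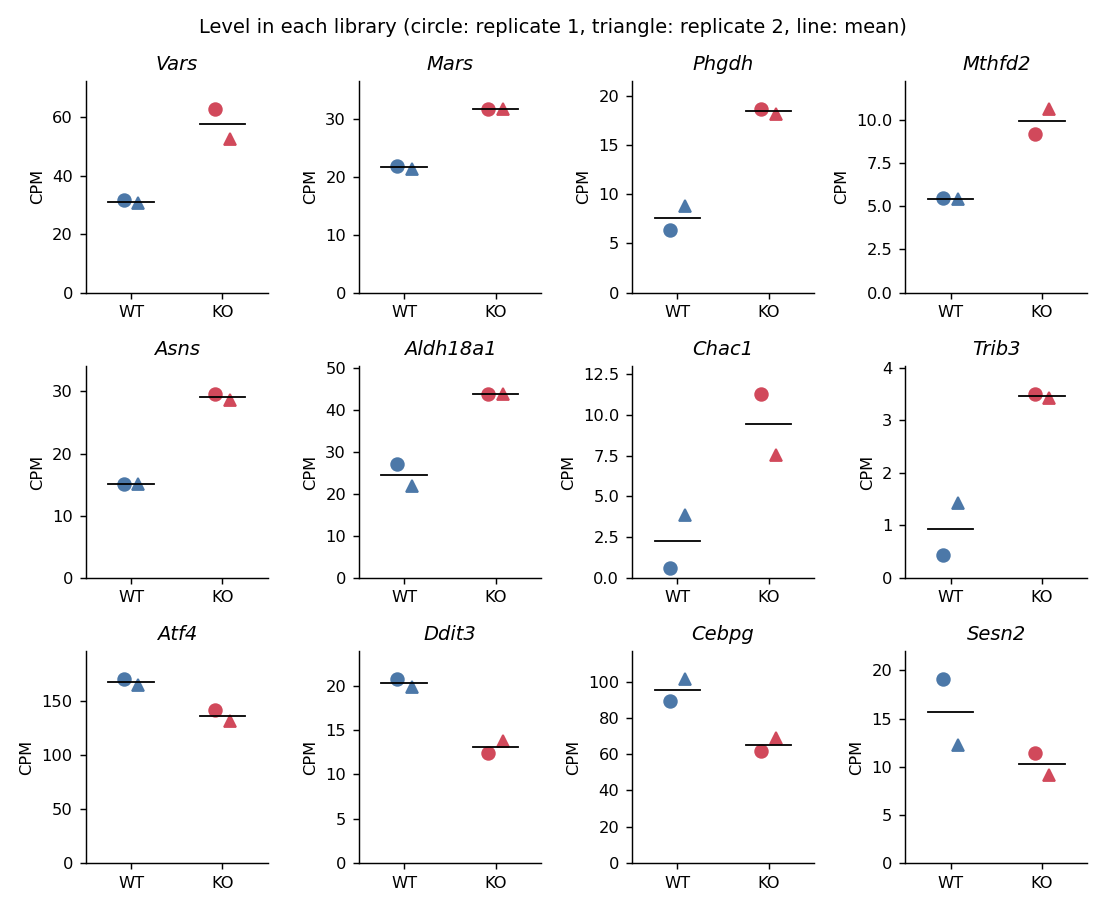
CPM in each of the 4 libraries for members described in the text, with the mean of each group. Asns, Phgdh and Vars show 2 separate groups, while the WT libraries of Chac1 stand apart, at 0.626 and 3.87 CPM.

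In the serine and one-carbon group all 7 log2 fold changes were positive (100%, against 49.0% of all genes), with a median of 0.46. Both edgeR and limma-voom called 1 gene (14.3%), against 1.72% and 2.02% of all genes called higher. DESeq2 called Phgdh and Mthfd2, where it called 6.94% of all genes higher. Phgdh (ENSMUSG00000053398, chromosome 3, 98313170 to 98339990) was at 6.36 and 8.80 CPM in WT and 18.7 and 18.2 CPM in KO. The KO libraries were close together and both well above WT. The means were 7.58 ± 1.72 and 18.4 ± 0.39 CPM (SD, n = 2), and the log2 fold change was 1.28 ± 0.20 (SE) with an adjusted p of 0.0475 (edgeR). Scaling with relative log expression factors, or leaving the robust option off, ended this call.

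Psat1 and Psph carry the serine pathway on from the product of Phgdh. Their log2 fold changes were 0.46 ± 0.21 and 0.54 ± 0.25 (SE), with adjusted p-values of 0.218 and 0.219 (edgeR), and in both genes the groups did not overlap. Mthfd2, a mitochondrial folate enzyme, was at 5.49 and 5.39 CPM in WT and 9.18 and 10.6 CPM in KO. The groups were separate, but at a log2 fold change of 0.87 ± 0.17 (SE) the adjusted p was 0.0619 (edgeR). DESeq2 called it, with an adjusted p of 0.0293, and the range over the alternatives was 0.0293 to 0.385. Mthfd1l, which acts after it in mitochondria, had a log2 fold change of 0.35 (adjusted p 0.164), and Shmt1, the cytosolic serine hydroxymethyltransferase, 0.28 (adjusted p 0.368). Shmt2, its mitochondrial counterpart and the most abundant of the 7 per kilobase, was at 16.1 and 19.4 CPM in WT and 20.5 and 17.7 CPM in KO. It was the 1 gene of the group whose libraries overlapped (log2 0.10 ± 0.16, SE, adjusted p 0.684). In the other 6 (85.7%, against 31.1% of all genes) both KO libraries lay above both WT libraries. The summed level of the 7 genes was 72.1 and 69.7 CPM in WT and 102 and 95.7 CPM in KO.

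Asns (ENSMUSG00000029752, chromosome 6, 7675169 to 7693254), which makes asparagine from aspartate and glutamine, was at 15.1 CPM in both WT libraries and at 29.6 and 28.6 CPM in the KO libraries. Spread within the genotypes was small beside the distance between them. The means were 15.1 ± 0.0437 and 29.1 ± 0.718 CPM (SD, n = 2), and the log2 fold change was 0.95 ± 0.11 (SE). Its adjusted p of 0.0434 (edgeR) was the lowest value any gene reached, shared with other genes through the adjustment.

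Proline synthesis from glutamate begins with Aldh18a1 and ends with Pycr1 in mitochondria. Aldh18a1 (chromosome 19, 40550257 to 40588463) was at 27.0 and 21.8 CPM in WT and 43.8 and 43.6 CPM in KO. The groups did not overlap, and at a log2 fold change of 0.84 ± 0.14 (SE) the adjusted p was 0.0503 (edgeR), just outside the threshold. Pycr1 was low throughout, at 2.12 and 1.52 CPM in WT and 2.04 and 1.60 CPM in KO. Its libraries overlapped, with a log2 fold change of 0.00 ± 0.37 (SE) and an adjusted p of 0.998.

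None of the 7 ATF4 and stress genes was called by edgeR, with 1 higher (14.3%) and 2 lower (28.6%) at an unadjusted p under 0.05, beside 14.8% and 15.7% of all genes. DESeq2 called Chac1 and Trib3 higher and Cebpg and Ddit3 lower, where it called 6.94% and 7.11% of all genes. Limma-voom called none. In no gene of the group did the libraries overlap: both KO libraries were above WT in 3 genes (42.9%, against 31.1% of all genes) and below in 4 (57.1%, against 32.2%). Atf4 itself (chromosome 15, 80255184 to 80257541), the member with the highest level per kilobase, was at 170 and 165 CPM in WT and 141 and 131 CPM in KO. The KO libraries were the lower ones, with a log2 fold change of -0.30 ± 0.11 (SE) and an adjusted p of 0.164 (edgeR). RNA counts do not measure how much ATF4 protein was translated.

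Ddit3, the stress factor CHOP (chromosome 10, 127290774 to 127296288), was at 20.8 and 19.9 CPM in WT and 12.5 and 13.8 CPM in KO. Both genotypes were tight and separate. The log2 fold change of -0.64 ± 0.13 (SE) had an adjusted p of 0.0611 (edgeR). Cebpg, a C/EBP partner of ATF4, was at 89.0 and 101.5 CPM in WT and 61.7 and 68.7 CPM in KO (log2 -0.55 ± 0.12, SE, adjusted p 0.0717). Sesn2, an inhibitor of mTORC1 signalling, was at 19.1 and 12.2 CPM in WT and 11.4 and 9.12 CPM in KO, with WT replicate 2 close to the KO libraries (log2 -0.61 ± 0.27, SE, adjusted p 0.207). Cebpb, another C/EBP factor, was at 11.7 and 17.7 CPM in WT and 24.4 and 18.7 CPM in KO, where WT replicate 2 and KO replicate 2 nearly met (log2 0.55 ± 0.26, SE, adjusted p 0.224).

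Chac1, a glutathione-degrading enzyme (chromosome 2, 119351229 to 119354381), had 13 and 92 counts in the WT libraries and 255 and 194 in the KO libraries, or 0.626, 3.87, 11.3 and 7.56 CPM. The KO libraries were the highest, but the WT libraries were far apart. Its log2 fold change was 2.05 ± 0.81 (SE) with an adjusted p of 0.175 (edgeR). It was 1.27 without WT replicate 1 and 3.93 without WT replicate 2. Trib3, a pseudokinase that restrains ATF4 and CHOP (chromosome 2, 152337422 to 152344032), had 9 and 34 counts in WT and 79 and 88 in KO, the same order of libraries within WT. Its log2 fold change of 1.87 ± 0.58 (SE) had an adjusted p of 0.119 (edgeR), and became 1.26 without WT replicate 1 and 3.02 without WT replicate 2. For both genes WT replicate 1 set much of the size of the difference.

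Per kilobase of exon, levels in WT ranged from 0.439 CPM for Trib3 to 71.1 CPM for Atf4. Gars (23.9), Wars (18.5), Nars (18.1), Cebpg (16.9) and Rars (16.0 CPM per kilobase) followed Atf4. The WT libraries of Wars, Nars, Cebpg and Rars spanned overlapping ranges, so the order of these is not settled. Among the called genes Vars stood at 5.55, Asns at 5.52 and Phgdh at 3.05 CPM per kilobase in WT, and at 10.3, 10.6 and 7.42 in KO. Exon lengths cover all annotated isoforms (18102 bases for Eprs), which lowers the value for genes with long rare isoforms.

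**Figure D3:**
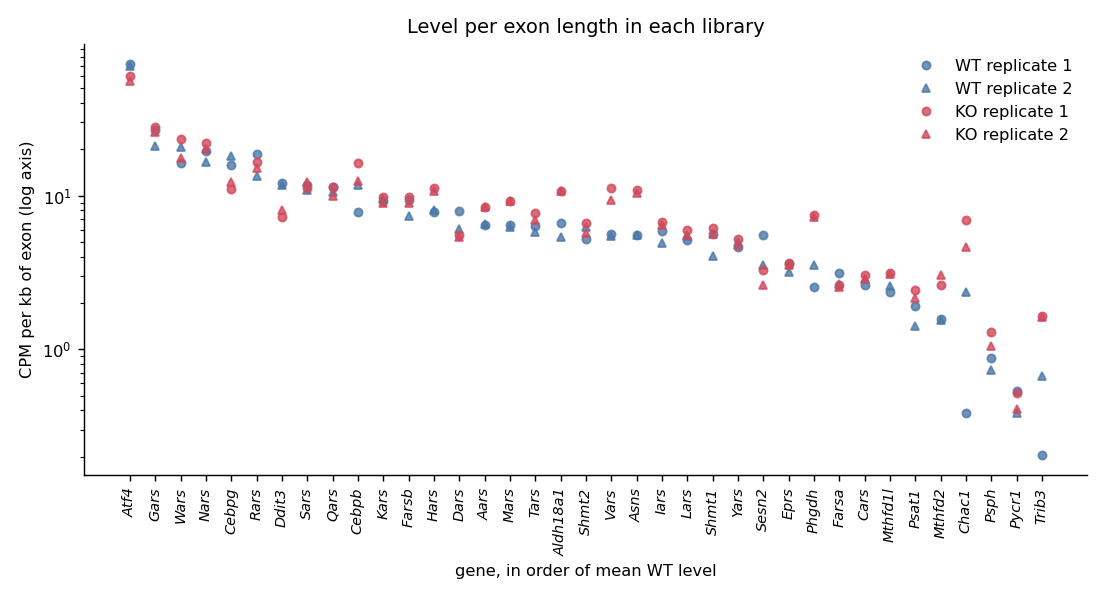
Level per kilobase of exon in each library for the 37 members, on a log axis and ordered by the WT mean. Atf4 is highest at 71.1 CPM per kilobase in WT and Trib3 lowest at 0.439.

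Exons of some members overlap those of other genes, and whether the counting used strand is not given. Mars and Ddit3 share 68 bases on opposite strands, and Hars and Hars2 share 195. Aars shares 1326 bases, 14.3% of its exons, with Exosc6 on the same strand. Exosc6 had 75 and 58 counts in WT and 239 and 265 in KO, and its part in the values of Aars was not tested. Cebpb shares 312 bases with Tmem189. The called members Vars, Phgdh and Asns share no exon with another gene.

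RefSeq promoters (250 bases before to 50 after the start) were found for 30 of the 37 members, and 9 of the 30 (30%) held TGATGNAA on either strand. Among all 27025 genes with a RefSeq promoter, 4.51% did so, and among the 32851 windows of these genes 3.97%. The set was chosen to hold genes of the ATF4 pathway, and ATF4 binds this element. These shares therefore describe the set and do not test it. Matches lay in 5 of 13 synthetases, Asns and Pycr1 of the 3 asparagine and proline genes, Chac1 and Trib3 of the stress genes, and 0 of the 7 serine and one-carbon genes, Phgdh among them. The match began 23 bases before the start in Asns and 193 before it in Chac1. The median log2 fold change was 0.27 for the 9 members with a match, all positive, and 0.10 for the 21 without, of which 14 were positive. The 9 included Pycr1 (0.0019 ± 0.37, SE) and Yars (0.05 ± 0.11, SE), whose signs turned in 2 of 14 alternatives each. The difference between members with and without a match was not tested. A match describes letters in a window and does not show binding. Cars, Hars, Lars, Nars, Rars, Vars and Wars were without a promoter entry.

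**Figure D4:**
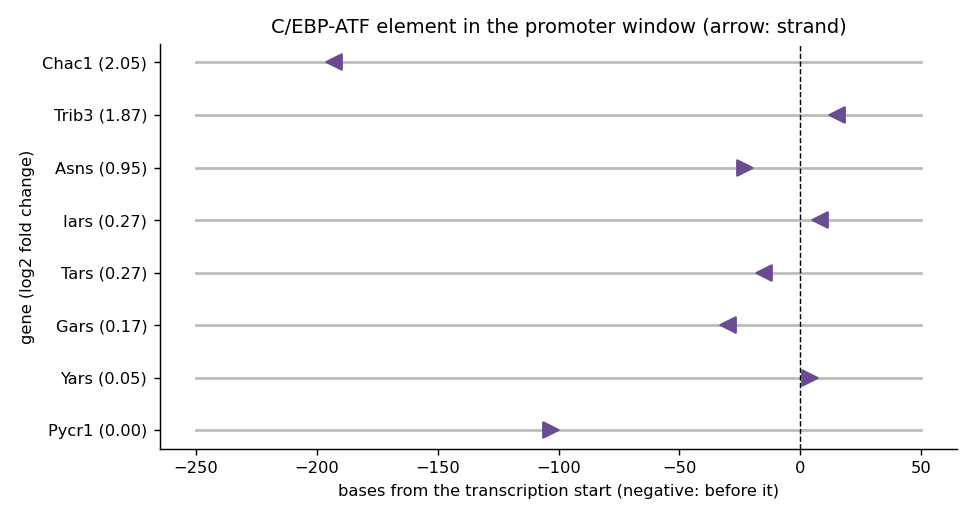
Position of each TGATGNAA match relative to the transcription start in 8 of the 9 members that hold one, with the strand marked. The matches shown range from 193 bases before the start in Chac1 to 15 after it in Trib3.

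The 17 mitochondrial synthetases had 1 call by edgeR and by limma-voom (5.88%, against 1.72% and 2.02% of all genes called higher). This gene, Ears2, charges glutamate tRNA in mitochondria. It was at 5.01 and 4.88 CPM in WT and 10.2 and 12.2 CPM in KO, a clear separation, with a log2 fold change of 1.18 ± 0.18 (SE) and an adjusted p of 0.0469 (edgeR). Mars2, the mitochondrial methionyl-tRNA synthetase, lay at the other end, at 7.42 and 6.19 CPM in WT and 2.88 and 2.42 CPM in KO (log2 -1.36 ± 0.24, SE, adjusted p 0.0528 by edgeR). DESeq2 called Ears2 and Pars2 higher and Mars2 lower, where it called 6.94% and 7.11% of all genes. In all, 12 of 17 log2 fold changes were positive (70.6%, against 49.0% of all genes), with a median of 0.12. At an unadjusted p under 0.05, 4 were higher (23.5%) and 3 lower (17.6%), beside the 14.8% and 15.7% of all genes. Of 14 cytosolic and mitochondrial partners for the same amino acid, a pairing made after the values were seen, 9 had the same sign and 5 opposite signs (Cars, Dars, Hars, Iars and Mars with their partners). For methionine the values were 0.55 and -1.36, and the differences between partners were not tested.

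**Figure D5:**
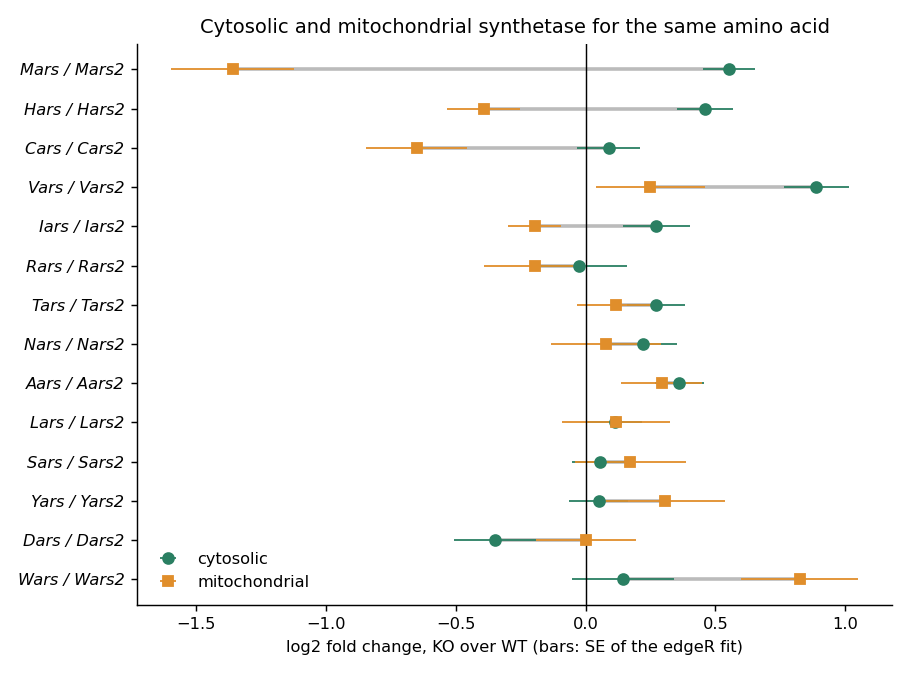
Log2 fold change (KO against WT, with SE) of each cytosolic synthetase (circles) and its mitochondrial partner (squares) for 14 amino acids, joined by a grey line. Partners for 9 amino acids share a sign, and the methionine pair lies farthest apart, at 0.55 and -1.36.

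The scaffolds of the multisynthetase complex, Aimp1, Aimp2 and Eef1e1, had log2 fold changes of -0.13, -0.19 and 0.37. None was called by edgeR, DESeq2 or limma-voom, and 0 had an unadjusted p under 0.05. Among 14 genes for eIF2 kinases, phosphatase subunits and eIF2 and eIF2B subunits, which set how much ATF4 is translated, none was called by any of the 3 tools. Their median was -0.05, with 1 higher and 1 lower at an unadjusted p under 0.05 (7.14% each, below the share of all genes). Eif2s2, a subunit of eIF2, and Ppp1r15b, a subunit of its phosphatase, had log2 fold changes of -0.03 and -0.07 (adjusted p 0.932 and 0.799).

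Of 10 amino acid transporters tied to the ATF4 pathway none was called by edgeR or limma-voom. DESeq2 called 5 higher (Slc1a5, Slc6a9, Slc7a1, Slc7a5 and Slc7a11) and 2 lower (Slc3a2 and Slc38a1), beside 6.94% and 7.11% of all genes. At an unadjusted p under 0.05, 5 were higher (50%) and 3 lower (30%), beside 14.8% and 15.7% of all genes. Slc7a5 and Slc3a2, which together form the large neutral amino acid transporter, had opposite signs. Slc7a5 was at 6.26 and 10.6 CPM in WT and 18.1 and 15.6 CPM in KO (log2 1.0 ± 0.28, SE, adjusted p 0.102). Slc3a2 was at 143 and 175 CPM in WT and 100.7 and 91.8 CPM in KO (log2 -0.72 ± 0.15, SE, adjusted p 0.0627). Slc7a11, the cystine transporter, which also pairs with Slc3a2, was at 1.25 and 2.90 CPM in WT and 9.09 and 4.36 CPM in KO (adjusted p 0.137). Slc38a1, a glutamine transporter, was at 437 and 252 CPM in WT and 154 and 204 CPM in KO (log2 -0.95 ± 0.32, SE, adjusted p 0.136), and Slc38a2 had a log2 fold change of 0.28 (adjusted p 0.231).

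A further 15 genes of the ATF4 pathway included 14 that could be tested, since Fgf21 had 0 counts in all 4 libraries. None was called by edgeR or limma-voom. DESeq2 called 2 higher (Cebpd and Eif4ebp1) and 2 lower (Atf3 and Gpt2), beside 6.94% and 7.11% of all genes. At an unadjusted p under 0.05, 4 were higher and 4 lower (28.6% each), beside 14.8% and 15.7% of all genes. Atf3, a stress factor, was at 365 and 583 CPM in WT and 273 and 141 CPM in KO (adjusted p 0.14), and Nupr1 had a log2 fold change of 0.12 (adjusted p 0.546). Of 15 other serine, glycine, folate, proline and glutamine enzymes 14 were tested and 0 called by edgeR or limma-voom. DESeq2 called 1 higher, Mthfd2l, and 1 lower, Oat, and 2 were higher and 2 lower at an unadjusted p under 0.05 (14.3% each, close to the share of all genes). Oat, which links ornithine to proline, was at 402 and 236 CPM in WT and 116 and 149 CPM in KO (log2 -1.26 ± 0.31, SE, adjusted p 0.0809), and Glul, glutamine synthetase, had a log2 fold change of 0.31 (adjusted p 0.376). Gldc, with 8 and 14 counts in WT and 1 and 4 in KO, did not pass the filter.

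Total counts ran from 22136440 to 24991060 per library, of which the mitochondrial genome took 28.6% to 33.8%. Epithelial markers were abundant in every library, at 9277 and 11291 CPM summed over 9 genes in WT and 8398 and 7498 CPM in KO, with 0 of 9 called by edgeR or limma-voom. Their KO libraries lay below the WT libraries in 6 of 9 genes (66.7%, against 32.2% of all genes). At an unadjusted p under 0.05, 4 were lower (44.4%, against 15.7%). DESeq2 called Krt18, Lgals4 and Vil1 lower, beside 7.11% of all genes. Markers of proliferation summed to 123 and 144 CPM in WT and 312 and 291 CPM in KO. Of these 8 genes edgeR called 6 higher (75%, against 1.72% of all genes). Macrophage markers summed to 73.6 and 104 CPM in WT and 182 and 170 CPM in KO. Of these 10 genes edgeR called 3 higher (30%, against 1.72% of all genes). Fibroblast markers were at 52.6 and 75.9 CPM in WT and at 65.8 and 565 CPM in KO, and erythroid markers at 1950 and 2696 CPM and at 1334 and 6560 CPM, both highest in KO replicate 2. Neutrophil markers summed to 42.1 and 148 CPM in WT and 138 and 97.2 CPM in KO. Of these sums Ly6g alone held 38.2 and 129 CPM in WT and 90.1 and 87.0 CPM in KO. Unlike Ly6g and Retnlg, the markers S100a8, S100a9, Csf3r and Cxcr2 were highest in KO replicate 1. S100a8 was at 0.578 and 8.80 CPM in WT and 17.9 and 2.77 CPM in KO. Endothelial markers were at 5.54 and 8.71 CPM and at 14.6 and 13.4 CPM. T cell markers were at 36.6 and 37.8 CPM and at 53.9 and 42.2 CPM. For B and plasma cell markers the sums were 204 and 209 CPM and 204 and 208 CPM. Neither edgeR nor limma-voom called a gene of these lists. DESeq2 called Cd4, Lum and Vwf higher and none lower, where it called 6.94% and 7.11% of all genes. No marker was at 0 counts in a library. Proliferation and macrophage markers were higher, and summed epithelial markers lower, in the libraries where Asns, Phgdh and Vars were higher, and their part in these results was not tested. In such bulk samples fewer cells of a type and less RNA per cell cannot be told apart.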

How the data were processed

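RNA of 2 WT and 2 KO libraries was compared. The authors deposited whole-number counts per gene, not normalised, as judged from the values. Per the submitters' processing notes, FastQC 0.11.2, STAR 2.4.2a, RSEM 1.2.29 and mm10 were used, with no roles given. Neither the annotation release nor the use of strand in counting is given in the sources used here. Groups came from the genotype label, and 0 columns of the table were left without a sample. Replicates were numbered in accession order.

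Genes were filtered with filterByExpr, scaled with TMM and tested in edgeR 4.0.16 (R 4.3.3, quasi-likelihood F-test, legacy and robust options on, two-sided), with Benjamini-Hochberg adjustment over 14861 genes and a threshold of 0.05. The code was tested on simulated counts. A count of 0 allows up to 3 counts, or 0.12 to 0.136 CPM, which covers counting error only. GENCODE M21 (GRCm38) held 99.56% of the identifiers. Promoters came from RefSeq on GRCm38.p6, and that of 1 member is not reported here.

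Members and lists were chosen with earlier results of these data known. The naming rule takes every called member, the largest positive and negative log2 fold change and the most abundant member of each role, and, of other lists, up to 6 called genes or else the 2 most abundant. Mars, Hars, Aars, Psat1, Psph, Mthfd2, Mthfd1l, Shmt1, Farsa, Farsb, Aldh18a1, Cebpg, Sesn2, Cebpb, Trib3, Mars2, Slc7a5, Slc3a2, Slc7a11, Mthfd2l, Pars2, Krt18, Lgals4 and Vil1, and the 30-base pieces, were added after values were seen. So were Cebpd, Eif4ebp1, Gpt2, Slc6a9, Cd4, Vwf, Lum, Ly6g, S100a8, S100a9, Csf3r, Cxcr2 and Retnlg. Alternatives were 3 other scalings, DESeq2 1.42.0, limma-voom (limma 3.58.1), the robust option off, 2 other filters, omission of mitochondrial genes, sex (read from Xist and Y-linked genes) as a covariate, and omission of each library.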

Additional observations from a re-analysis of the deposited data

How the results depend on the processing

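Against 3 members and 255 genes called higher, and 0 members and 282 genes lower, the alternatives gave the following counts. Library size alone called 5 members and 604 genes higher and 186 genes lower. Upper quartile factors called 5 members and 416 genes higher and 265 genes lower. Relative log expression factors called 2 members and 217 genes higher and 219 genes lower. With the robust option off, 2 members and 243 genes were higher and 263 genes lower. Limma-voom called 4 members and 300 genes higher, and 316 genes lower. A filter of at least 1 CPM in 2 libraries gave 4 members and 366 genes higher, and 388 genes lower. Omission of mitochondrial genes gave 4 members and 292 genes higher, and 254 genes lower. DESeq2 called 8 members and 952 genes higher, and 2 members and 975 genes lower. Without a filter, among 24337 genes tested, 6 members and 862 genes were higher, and 1 member and 770 genes lower. With sex as a covariate, which sets the male and the female library of each genotype side by side, 4 members and 696 genes were higher and 713 genes lower. Leaving out 1 library at a time gave 0 to 7 members higher, 0 to 1 lower, 0 to 1271 genes higher and 0 to 1019 lower, with the zeros from omission of KO replicate 1 or KO replicate 2. In these fits 1 group has a single library, which is assumed to vary like the other group.

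Asns and Vars were called in 12 of 14 alternatives, and Phgdh and Aldh18a1 in 10 of 14. Signs turned in 7 members, whose log2 fold changes lay between -0.04 and 0.14. Qars became 0.12 with library size alone and 0.029 with upper quartile factors. Rars became 0.14 and 0.045 with these, 0.00433 without a filter and 0.00596 without mitochondrial genes.
Leaving out 1 library at a time gave -0.073 to 0.082 for Kars, -0.16 to 0.082 for Qars, -0.21 to 0.22 for Rars, -0.084 to 0.36 for Wars, -0.034 to 0.15 for Yars, -0.031 to 0.27 for Shmt2 and -0.19 to 0.25 for Pycr1. The cause of these shifts was not tested.

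No paired analysis was possible because the labels give no replicate numbers and those used here follow accession order, so the fit with sex as a covariate is the nearest to one. With 2 libraries a group, 2 residual degrees of freedom limit the precision, and low members such as Trib3 (9 counts in WT replicate 1) are limited by depth.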

Other observations

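Cytosolic synthetases that belong to the multisynthetase complex were set beside those that do not, a grouping chosen after the values were seen. The 8 complex members (Dars, Eprs, Iars, Kars, Lars, Mars, Qars and Rars) had a median log2 fold change of 0.05, with 5 positive, and ran from -0.35 to 0.55. The 12 others had a median of 0.17, with 11 positive, and ran from -0.17 to 0.89. The difference between the groups was not tested.

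Other genes of the lists near the threshold, also picked after their values were seen, were Slc7a1, Slc1a5, Tyms, Cebpd, Mthfd2l and Gpt2. Slc7a1, a transporter of cationic amino acids, was at 25.8 and 21.7 CPM in WT and 39.6 and 38.2 CPM in KO (log2 0.71 ± 0.13, SE, adjusted p 0.0532 by edgeR). Slc1a5, a glutamine transporter, was at 66.3 and 71.3 CPM in WT and 102 and 126 CPM in KO (log2 0.73 ± 0.14, SE, adjusted p 0.0602). Neither had overlapping groups. Tyms, which makes thymidylate with a folate cofactor, had a log2 fold change of 0.62 (adjusted p 0.0723). Cebpd (log2 0.77) and Mthfd2l (log2 1.11) each had an adjusted p of 0.0555 (edgeR). Lower genes came near as well, such as Gpt2 (log2 -0.76, adjusted p 0.0713) and, described above, Mars2 and Slc3a2.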
